A study of Mus musculus with 20 samples.

Results

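Ccl21a, Prox1, Mmrn1, Reln, Sema3d and Lyve1 are genes by which lymphatic endothelial cells of the lung are commonly recognised, and their transcripts were followed through 20 libraries of whole mouse lung. The 6 genes were taken by name from a table of 30558 named genes, and all 6 passed the filter on low values. Mice of the VIPKO genotype and C57BL/6 wild-type (WT) mice were kept for 4 weeks in 10% oxygen (hypoxia) or in room air with 21% oxygen (normoxia). The groups held 5 VIPKO hypoxia, 4 VIPKO normoxia, 5 WT hypoxia and 6 WT normoxia libraries. VIPKO stands for loss of Vip, the gene of vasoactive intestinal peptide, but the genotype field of the labels speaks of a knockdown where titles and design speak of a knockout. The labels name a single batch and do not say that each library is a separate animal, so p-values measure the spread between these libraries, which may in part be technical.

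Lymphatic vessels drain fluid, lipids and leukocytes from tissue, and in the lung they run along airways, larger vessels and the pleura. Prox1 is the transcription factor that specifies and maintains lymphatic endothelial identity. Vegfc, a secreted growth factor, acts through the receptor Flt4 on these cells and drives the sprouting of lymphatic vessels. Ccl21 chemokines, displayed by lymphatic endothelium, draw dendritic cells and T cells that carry the receptor Ccr7 into the vessel. Reln is a large secreted glycoprotein, Mmrn1 a secreted multimeric protein that platelets also store, Sema3d a secreted guidance cue, and Lyve1 a hyaluronan receptor that some interstitial macrophages carry as well.

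One sequence bears on how the chemokine values are to be read, because Ccl21a has near-identical copies on chromosome 4. The coding sequence of Ccl21a (402 bases, 133 residues) differed from those of Ccl21b, Gm21541, Gm13304 and Gm10591 at 2 positions, T84A and C194T, counted from 1 at the first base of the start codon, with Ccl21a as the first letter. The 4 other coding sequences were identical to each other. Coding bases 164 to 224 of Ccl21a (chr4:42772860-42773993, minus strand) and Ccl21b (chr4:42255767-42256432, plus strand), from the GENCODE transcripts of GRCm38, are shown with the base that differs in capitals.
Ccl21a: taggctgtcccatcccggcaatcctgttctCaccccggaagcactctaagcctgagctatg
Ccl21b: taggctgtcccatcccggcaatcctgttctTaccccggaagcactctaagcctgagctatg
Of all windows of 50 coding bases of Ccl21a, 71.7% were also found in Ccl21b, and of windows of 100 bases 39.3%. Reads from such windows cannot be assigned to 1 copy from their sequence, so the level of Ccl21a is uncertain and is given below also as a sum with the copies in the table.

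The 250 bases before the annotated starts of 3 members that rose in both genotypes are shown because these genes moved together (RefSeq, GRCm38.p6, written 5′ to 3′ along the gene). Capitals mark GGAAG, the core bound by ETS factors, ACGTG, 1 form of the core of the hypoxia response element, and TATAAA. Each was searched on both strands, so that a motif on the opposite strand stands as its reverse complement. The other form of the hypoxia core, GCGTG, was not searched and is not marked, though the Reln and Mmrn1 windows hold it.
Ccl21a, chr4:42773992-42774241, minus strand: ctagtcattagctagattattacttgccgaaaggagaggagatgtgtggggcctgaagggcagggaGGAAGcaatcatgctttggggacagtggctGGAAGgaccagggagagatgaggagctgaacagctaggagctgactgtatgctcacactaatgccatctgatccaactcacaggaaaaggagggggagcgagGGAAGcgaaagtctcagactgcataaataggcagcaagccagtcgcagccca
Prox1, chr1:190170828-190171077, minus strand: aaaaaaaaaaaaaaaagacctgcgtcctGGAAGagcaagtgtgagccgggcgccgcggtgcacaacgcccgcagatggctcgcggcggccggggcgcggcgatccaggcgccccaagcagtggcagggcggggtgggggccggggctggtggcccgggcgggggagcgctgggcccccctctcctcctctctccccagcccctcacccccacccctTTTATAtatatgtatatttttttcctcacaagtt
Reln, chr5:22344706-22344955, minus strand: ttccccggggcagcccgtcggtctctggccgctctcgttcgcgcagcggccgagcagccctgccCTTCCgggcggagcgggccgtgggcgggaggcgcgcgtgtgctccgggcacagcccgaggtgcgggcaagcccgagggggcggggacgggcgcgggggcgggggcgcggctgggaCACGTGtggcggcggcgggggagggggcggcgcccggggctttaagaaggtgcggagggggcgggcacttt
ACGTG stood in the Reln window, 70 to 66 bases before the start, where the palindrome CACGTG holds it on both strands. It was in none of the other member windows searched and in 16.6% of 32851 promoter windows of the same length. GGAAG stood in all 3 windows, and 64.1% of promoter windows hold it, so it is common. TATAAA stood in the Prox1 window shown, 34 to 29 bases before the start and on the opposite strand only. It was in none of the other member windows searched, the further Prox1 start among them, and in 12.4% of promoter windows. A further Prox1 start, the Sema3d start and the Mmrn1 start were searched as well. The Mmrn1 start of the table, next to position 60944316 on chromosome 6, lies inside the gene as GENCODE draws it, so its window is not shown. It held ACAAT, the core bound by SOX factors, 3 times, and 27.7% of promoter windows held it.

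Estimated depth ran from 4.96 to 56.7 M reads in 19 libraries (median 17.5 M), and the scarcest member value, for Prox1, rested on 69 estimated reads. The value taken as 1 read for this estimate was uncertain in VIPKO hypoxia 2. Vip itself checked the genotype poorly, since WT normoxia libraries held signals of 0 to 93.0 and WT hypoxia libraries 0 to 6.77. One signal went against its label, 105.9 in the library labelled VIPKO hypoxia 4, against 1.08 to 4.70 in the other VIPKO hypoxia libraries and 1.16 to 5.54 in VIPKO normoxia. Thymus genes summed to 15933 in VIPKO hypoxia 3, against 3.38 to 28.6 in the other libraries, and skeletal muscle genes to 32638 in WT hypoxia 5. All 6 members were read in every library.

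Most of these genes were higher in hypoxia than in normoxia in both genotypes. In VIPKO lungs Ccl21a, Prox1, Mmrn1 and Reln rose by 1.35 to 1.63 on the log2 scale, and in WT lungs the same 4 genes and Sema3d rose. Lyve1 did not rise in either genotype. Fold changes are log2 differences of log2(signal + 1) ± SE from limma, with p-values adjusted by the Benjamini-Hochberg method over 21658 genes and a threshold of 0.05. In VIPKO lungs 4 of 6 members rose, beside 0.614% of all genes tested called higher, and the other 2 did not pass the test. In WT lungs 5 of 6 rose, beside 7.88% called higher, and Lyve1 did not pass. All hypoxia libraries lay above all normoxia libraries for 4 of 6 members in VIPKO lungs, as for 2.7% of all genes, and for 4 of 6 in WT lungs, as for 4.13% of all genes. Leaving out VIPKO normoxia 2 and 3 and VIPKO hypoxia 2 together left only Ccl21a called in VIPKO lungs. These libraries share the even division of Ccl21b and Ccl21d described below. Without them 2 of the 4 VIPKO normoxia libraries are gone, and 45 of all genes were called against 216 with all libraries. The changes were then 1.40 for Prox1 (adjusted p = 0.136), 1.23 for Mmrn1 (0.133) and 1.38 for Reln (0.0609). The median change of the 6 was 1.41 in VIPKO and 1.13 in WT lungs, against -0.01 over all genes tested in both. In whole-lung RNA, more lymphatic cells and more RNA per lymphatic cell cannot be told apart.

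**Figure D1:**
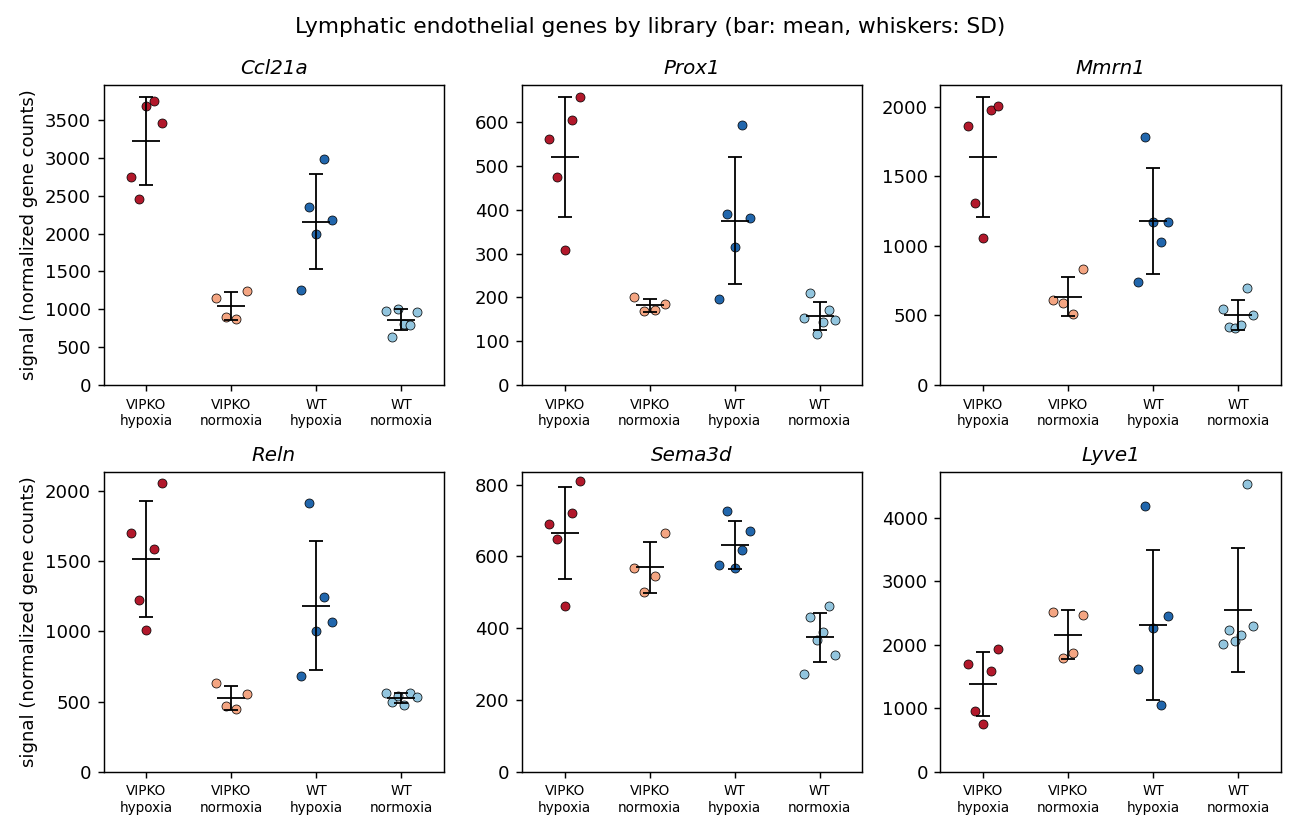
Signal (normalized gene counts, linear axes from 0) of the 6 genes in each library, with group means and SD. The VIPKO hypoxia points lie above all VIPKO normoxia points for Ccl21a, Prox1, Mmrn1 and Reln, and Lyve1 shows 1 WT normoxia point at 4534, far above the others of its group.

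Prox1 (ENSMUSG00000010175.13, chromosome 1, 190118035 to 190170714, minus strand) is considered first as the identity factor. Its signal was 563, 474, 307, 605 and 657 in VIPKO hypoxia libraries 1 to 5, and 201, 169.5, 172 and 185 in VIPKO normoxia libraries 1 to 4. All 5 hypoxia values exceeded all 4 normoxia values. The change was 1.47 ± 0.25 (adjusted p = 0.00374, limma). The 5 WT hypoxia libraries read 196, 391, 315, 595 and 380.4, and WT normoxia ranged from 116 over a median of 151 to 211. WT hypoxia 1 alone fell within the normoxia range. The WT change was 1.18 ± 0.22 (adjusted p = 0.00414).

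Ccl21a (ENSMUSG00000094686.1, chromosome 4, 42772860 to 42773993) was the most abundant member per length, at 3706 ± 668 signal per kb of exon in VIPKO hypoxia (SD, n = 5) and 1196 ± 212 in VIPKO normoxia (SD, n = 4), with 2478 ± 723 in WT hypoxia (SD, n = 5) and 993 ± 164 in WT normoxia (SD, n = 6). On the deposited scale it was 2752, 2464, 3692, 3748 and 3466 in VIPKO hypoxia libraries 1 to 5 and 1148, 897, 873 and 1244.5 in VIPKO normoxia libraries 1 to 4. Those ranges did not overlap. The VIPKO change was 1.63 ± 0.20 (adjusted p = 0.000129). WT lungs gave 1249, 2358, 2001, 2990.0 and 2180.3 in hypoxia, and in WT normoxia Ccl21a ran from 637.5 over a median of 883 to 1004. These ranges also lay apart, and the WT change was 1.28 ± 0.18 (adjusted p = 0.000832). Without VIPKO hypoxia 3, the library with thymus transcripts, the VIPKO change was 1.57 (adjusted p = 0.000404). Without the library labelled VIPKO hypoxia 4 it was also 1.57 (adjusted p = 0.000614).

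The rows of Ccl21a, Ccl21b and Ccl21d were summed to see the chemokine without the division between copies. The sum was 3010 to 5617 in VIPKO hypoxia and 1037 to 1793 in VIPKO normoxia, and 1734 to 4047 in WT hypoxia and 981 to 1470 in WT normoxia, without overlap in either genotype. With the sum in place of Ccl21a the VIPKO change was 1.71 (adjusted p = 0.000222) and the WT change 1.17 (adjusted p = 0.00240). Ccl21a took 64.0% to 84.2% of the sum. Ccl21b and Ccl21d were nearly equal in VIPKO normoxia 2 and 3 and VIPKO hypoxia 2, where each took 7.70% to 11.6%, while elsewhere Ccl21b took 18.7% to 36.0% and Ccl21d 0.00383% to 8.01%. Ccl21b alone passed the test in VIPKO lungs (2.29 ± 0.51, adjusted p = 0.0321) and not in WT lungs (0.86 ± 0.46, adjusted p = 0.197). Leaving out any of several single libraries ended that call. The annotated start of Ccl21d lies next to that of Gm21541 (chr4:41903610, plus strand), whose coding sequence is identical to that of Ccl21b. The division between the Ccl21b and Ccl21d rows is therefore uncertain. In VIPKO normoxia 2 and 3, which have the even division, Ccl21b was 135 and 84.5.

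**Figure D2:**
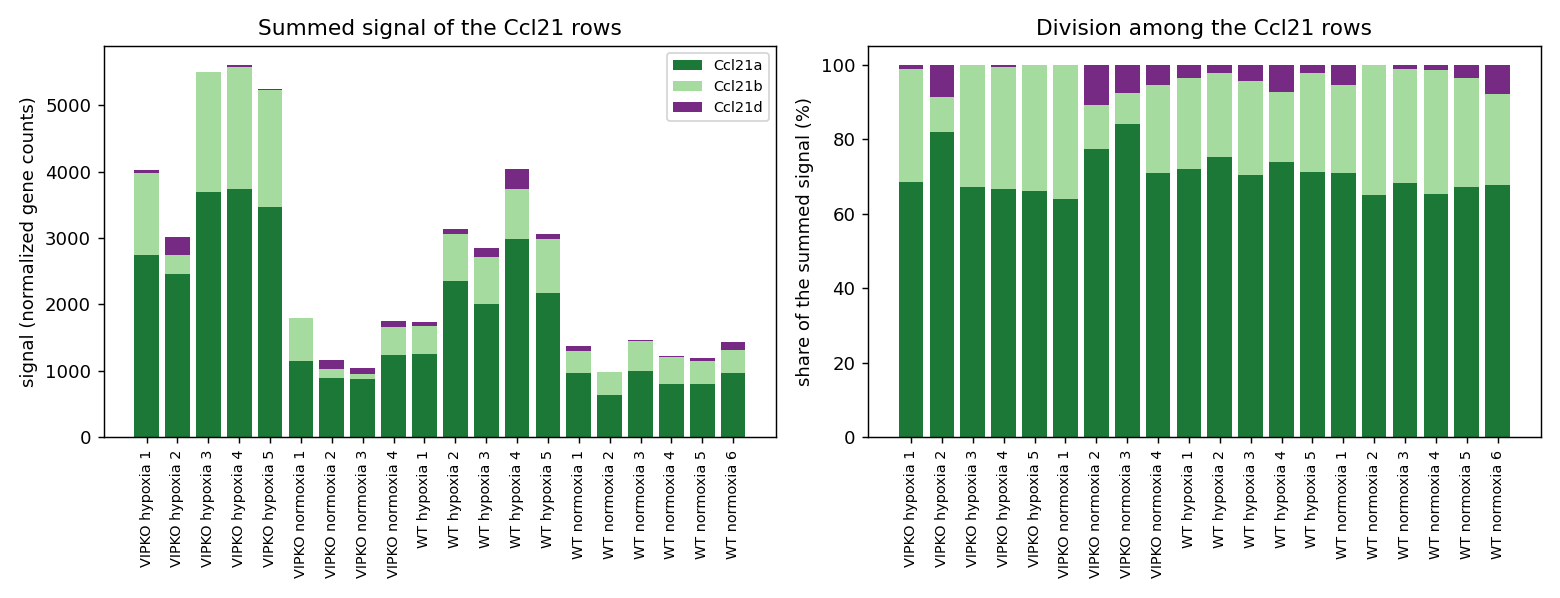
Stacked signal of the Ccl21a, Ccl21b and Ccl21d rows in each library (left, normalized gene counts) and the share of each row in percent (right). The hypoxia libraries have taller bars than the normoxia libraries of their genotype, and 3 VIPKO libraries divide the non-Ccl21a part about equally between Ccl21b and Ccl21d.

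Mmrn1 (ENSMUSG00000054641.10, chromosome 6, 60924976 to 60989378, plus strand) was 1862, 1304, 1058, 1973 and 2004 in VIPKO hypoxia libraries 1 to 5, and 609, 589.5, 508 and 831 in VIPKO normoxia libraries 1 to 4. The lowest hypoxia value exceeded the highest normoxia value, and the change was 1.35 ± 0.23 (adjusted p = 0.00374). Under hypoxia the WT libraries held 737, 1785, 1168, 1026 and 1168.5, and WT normoxia ran from 411.01 over a median of 469 to 694. Here too the ranges lay apart, with a change of 1.20 ± 0.20 (adjusted p = 0.00240). Platelets are another source of Mmrn1. Of 6 platelet and megakaryocyte genes 0 passed the limma test in either genotype. At an unadjusted p under 0.05 stood 0 in VIPKO and 1 in WT lungs, beside 2806 and 7150 of all 21658 genes. In VIPKO hypoxia 0.614% of all genes were called higher and 0.383% lower, and in WT hypoxia 7.88% and 6.77%. The platelet list summed to 468 to 2222 in VIPKO hypoxia and 558 to 2205 in VIPKO normoxia. In WT lungs it summed to 628 to 1314 in hypoxia and 595 to 1077 in normoxia. The part of platelets in the Mmrn1 values was not tested.

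Reln (ENSMUSG00000042453.14, chromosome 5, 21884454 to 22344702, minus strand) is expressed in collecting lymphatics. Its signal was 1704, 1220.4, 1012, 1588 and 2057 in VIPKO hypoxia libraries 1 to 5, and 631, 469, 447 and 555 in VIPKO normoxia libraries 1 to 4. All hypoxia values were higher, and the change was 1.496 ± 0.22 (adjusted p = 0.000905). Its WT hypoxia values were 680.0, 1917, 1006, 1244 and 1069, and WT normoxia ran from 478 over a median of 534 to 562. The change was 1.08 ± 0.20 (adjusted p = 0.00331), without overlap. Of the receptors for reelin, Vldlr rose by 0.45 ± 0.11 in VIPKO lungs (adjusted p = 0.0442) and by 0.35 ± 0.10 in WT lungs (adjusted p = 0.0228). The VIPKO call was lost under several alternatives. The WT call was lost without WT hypoxia 3 (adjusted p = 0.0633) and without WT hypoxia 5 (adjusted p = 0.0630). Lrp8 changed by 0.51 ± 0.26 in VIPKO and -0.29 ± 0.24 in WT lungs, and Dab1, the intracellular adaptor, by -0.85 ± 0.43 in VIPKO and 0.19 ± 0.39 in WT lungs, none past the threshold.

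Sema3d and Lyve1 did not follow the other 4 in both genotypes. Sema3d (ENSMUSG00000040254.11, chromosome 5, 12383385 to 12588948, plus strand) was 690.2, 647.5, 463, 720.2 and 809 in VIPKO hypoxia libraries 1 to 5 and 567, 499.8, 544 and 666 in VIPKO normoxia libraries 1 to 4, so that the ranges overlapped. The change was 0.21 ± 0.15 (adjusted p = 0.582, 95% interval -0.11 to 0.53). Among WT lungs it was 575.5, 726, 569, 618 and 672 in hypoxia, and WT normoxia ran from 272 over a median of 379 to 461. The WT ranges lay apart, and the change was 0.77 ± 0.14 (adjusted p = 0.00331). The difference between the 2 hypoxia effects was -0.56 ± 0.21 (adjusted p = 0.228), so the test of that difference was not passed. The normoxia groups themselves differed, with Sema3d 0.62 ± 0.15 higher in VIPKO normoxia than in WT normoxia (adjusted p = 0.0177), and no overlap.

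Lyve1 (ENSMUSG00000030787.4, chromosome 7, 110850607 to 110863239, minus strand) was 1691, 955, 755, 1592 and 1925 in VIPKO hypoxia libraries 1 to 5 and 2522, 1789, 1864 and 2461 in VIPKO normoxia libraries 1 to 4. Of the 5 hypoxia values, 4 were below all normoxia values, but the change of -0.71 ± 0.33 missed the threshold (adjusted p = 0.363). WT hypoxia libraries held 1611, 4181, 2258, 1053 and 2453.5, and WT normoxia ran from 2011 over a median of 2189.5 to 4534. The ranges overlapped widely, with a change of -0.22 ± 0.29 (adjusted p = 0.628). Interstitial macrophages are another source of Lyve1. Of 6 genes listed for these macrophages none passed the test in VIPKO lungs. In WT lungs Mrc1 (0.68 ± 0.18, adjusted p = 0.0214) and Cbr2 (0.82 ± 0.23, adjusted p = 0.0239) rose. The listed genes are not confined to interstitial macrophages, and 5 of 6 airway genes rose in WT hypoxia as well. Which cells gave these signals, and the part of macrophages in the Lyve1 values, was not tested.

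**Figure D3:**
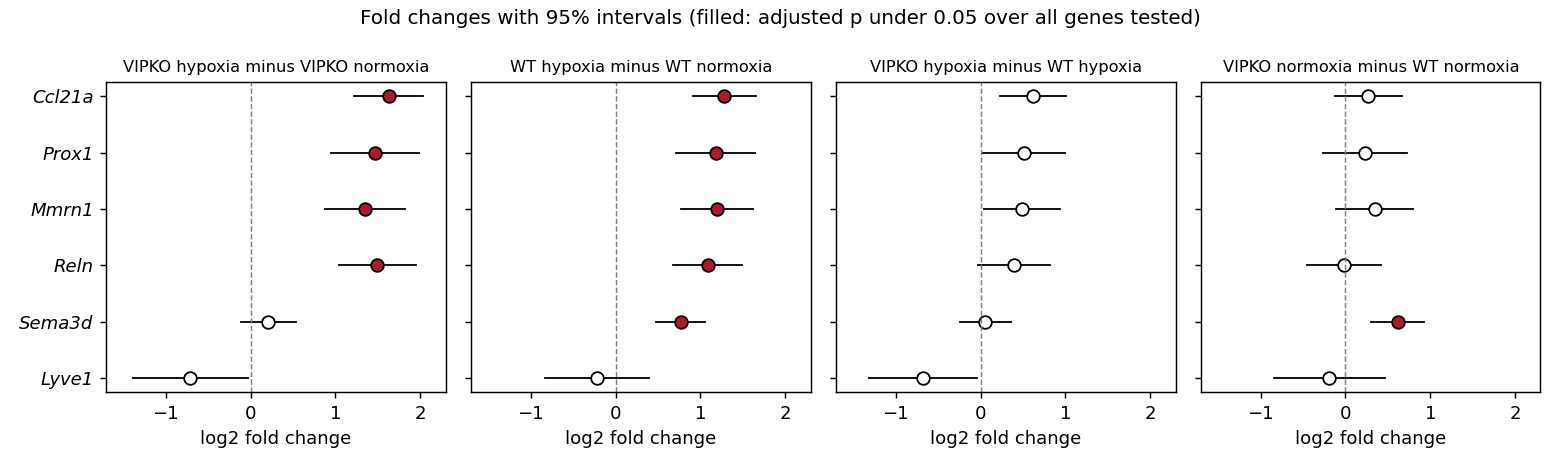
Log2 fold change with 95% interval (limma) of each gene in 4 comparisons, filled where the adjusted p is under 0.05 over all genes tested. Filled points stand at 1.35 to 1.63 for 4 genes in VIPKO hypoxia and at 0.77 to 1.28 for 5 genes in WT hypoxia, with Sema3d as the filled point between the normoxia groups.

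The next comparison asked whether genotype altered these genes. In normoxia 1 of 6 members, Sema3d, was higher in VIPKO lungs, beside 4.69% of all genes tested called higher. Its VIPKO normoxia libraries lay above all WT normoxia libraries, as for 4.75% of all genes, and the call was lost without VIPKO normoxia 4 (0.54, adjusted p = 0.0787). Markers of other cells differed in the same comparison, with 5 of 6 airway, 2 of 6 adipocyte and 2 of 6 macrophage genes higher and 2 of 8 endothelial genes lower, beside 3.96% of all genes called lower. Their part in the Sema3d difference was not tested. In hypoxia none passed the threshold, beside 1.62% called in either direction, although 4 of 6 had an unadjusted p under 0.05, as did 18.8% of all genes. Those were Ccl21a at 0.62 ± 0.19 (adjusted p = 0.0857), Mmrn1 at 0.49 ± 0.21 (0.216), Prox1 at 0.51 ± 0.23 (0.235) and Lyve1 at -0.68 ± 0.31 (0.235). For none of the 6 did the difference between the hypoxia effects in VIPKO and WT pass the test, beside 0.282% of all genes, and 1 of 6 had an unadjusted p under 0.05, as did 14.2% of all genes. A p that misses the threshold leaves a difference possible, and the intervals for Ccl21a, from -0.21 to 0.90, and for Reln, from -0.20 to 1.02, hold both none and a sizeable one.

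The members were also set against the summed signal of 8 genes widely expressed in endothelium (Pecam1, Cdh5, Erg, Emcn, Cldn5, Egfl7, Esam and Robo4). That sum averaged 45178 in VIPKO hypoxia and 41836 in VIPKO normoxia, and 44863 in WT hypoxia and 53163 in WT normoxia. The ratios therefore also carry the change of the sum, which was lower in WT hypoxia and in VIPKO normoxia than in WT normoxia. Ccl21a itself was not called between the normoxia groups. Per 1000 of that signal, Ccl21a was 72.4 ± 17.8 in VIPKO hypoxia (SD, n = 5) and 24.8 ± 3.76 in VIPKO normoxia (SD, n = 4), which is 2.92 times as high. In WT lungs it was 47.4 ± 7.41 in hypoxia (SD, n = 5) and 16.2 ± 1.498 in normoxia (SD, n = 6), or 2.93 times. By the same measure, VIPKO hypoxia over VIPKO normoxia was 2.63 for Prox1, 2.37 for Mmrn1, 2.66 for Reln and 1.08 for Sema3d. In WT lungs these ratios were 2.67, 2.79, 2.65 and 2.01. Lyve1 per endothelial signal was 0.589 times as high in VIPKO hypoxia as in VIPKO normoxia, and 1.09 times in WT lungs. Of the 8 endothelial genes none passed the test in VIPKO lungs, and Cdh5, the junctional cadherin, fell by 0.42 ± 0.13 in WT lungs (adjusted p = 0.0296).

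Within groups, several members were high or low in the same library. WT hypoxia 1 was the lowest of its group for 4 of the 6 members and VIPKO hypoxia 3 for 5 of 6, while VIPKO hypoxia 5 was the highest for 5 of 6. The summed endothelial signal was 33849 in WT hypoxia 1, the lowest of all 20 libraries, and 37949 in VIPKO hypoxia 3, the lowest of its group. With group means subtracted, Pearson's r over 20 libraries was 0.83 between Mmrn1 and Reln and 0.83 between Mmrn1 and Lyve1, but -0.04 between Ccl21a and Sema3d. They are a description, since all genes of a library share its depth and its piece of tissue.

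**Figure D4:**
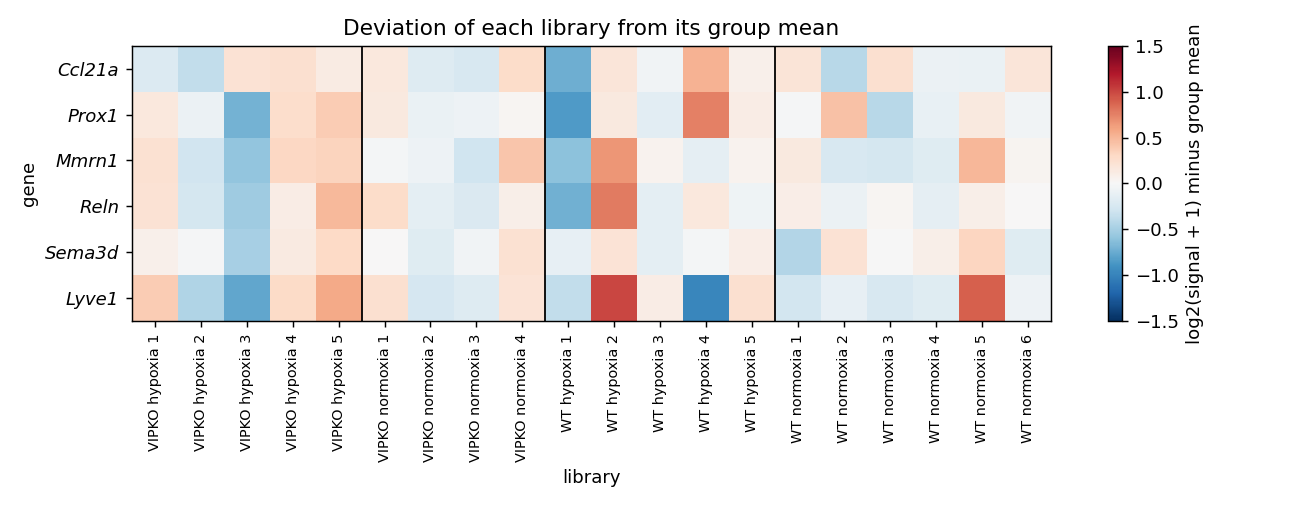
Log2(signal + 1) of each gene minus its group mean, by library (columns, groups separated by black lines), on a scale from -1.5 (blue) to 1.5 (red). Blue columns stand at VIPKO hypoxia 3 and WT hypoxia 1. Ccl21a departs from the column colour in VIPKO hypoxia 3, and Lyve1 in WT hypoxia 4.

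Genes whose level most resembled that of the members over the 20 libraries were ranked by Pearson's r with the mean scaled level of the 6. The 8 leading genes were Ndrg1 (0.932), Vldlr (0.907), Jam2 (0.901), Sgcb (0.867), Abcb1a (0.860), Car14 (0.859), Ptprr (0.857) and Npy1r (0.855). Ndrg1, a gene known to respond to hypoxia, rose by 0.70 in VIPKO (adjusted p = 0.0108) and by 0.76 in WT lungs (adjusted p = 0.00175). Jam2, a junctional adhesion molecule of endothelium, rose by 0.99 in VIPKO (adjusted p = 0.000963) and by 0.54 in WT lungs (adjusted p = 0.0139). With group means subtracted the 8 were Flt1 (0.899), Lrrc8b (0.894), Ptprb (0.880), Tslp (0.879), Btbd3 (0.871), Tgfbr3 (0.871), Kctd12 (0.865) and Zcchc24 (0.865). Flt1 is a receptor of Vegfa and Ptprb a phosphatase of endothelium. Group differences shape the first list and not the second.

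Among 15 further lymphatic endothelial genes, of which 14 were tested, 2 rose and 1 fell in VIPKO hypoxia, and 1 rose and 1 fell in WT hypoxia. The medians were 0.37 in VIPKO and 0.17 in WT lungs. Of all genes tested, 0.614% were called higher and 0.383% lower in VIPKO hypoxia, and 7.88% higher and 6.77% lower in WT hypoxia, so the WT counts lie near that share. Fxyd6, a regulator of the sodium pump, was 383 ± 41.6 in VIPKO hypoxia (SD, n = 5) and 189 ± 11.3 in VIPKO normoxia (SD, n = 4), and 370.5 ± 68.3 in WT hypoxia (SD, n = 5) and 189 ± 28.0 in WT normoxia (SD, n = 6). It rose by 1.01 ± 0.15 in VIPKO (adjusted p = 0.000917) and by 0.96 ± 0.13 in WT lungs (adjusted p = 0.000817), without overlap in either. Stab2, a scavenger receptor for hyaluronan, rose by 1.54 ± 0.26 in VIPKO lungs (adjusted p = 0.00457), to 205.5 ± 35.7 in hypoxia, against 70.8 ± 15.96 in normoxia. Without VIPKO normoxia 2 and 3 and VIPKO hypoxia 2 it was 1.58 (adjusted p = 0.105). The WT change was 0.62 ± 0.24 (adjusted p = 0.0788). Ackr4, a scavenging receptor for Ccl19 and Ccl21, fell by 0.91 ± 0.19 in VIPKO lungs (adjusted p = 0.0235) and stood at 77.8 ± 14.97 in VIPKO hypoxia, against 146 ± 22.8 in VIPKO normoxia. It was also lower in VIPKO hypoxia than in WT hypoxia (-0.76 ± 0.18, adjusted p = 0.0399), where it was 134 ± 34.3. Both calls were lost under several alternatives and with several single libraries left out. Piezo2, a stretch-gated channel, fell by 0.66 ± 0.21 in WT lungs (adjusted p = 0.0435), a call lost under several alternatives. Flt4, the receptor of Vegfc, changed by 0.44 ± 0.15 in VIPKO (adjusted p = 0.197) and 0.10 ± 0.14 in WT lungs (adjusted p = 0.628), neither past the threshold. Pdpn, a mucin-like glycoprotein not confined to lymphatic endothelium, changed by 0.03 ± 0.16 and 0.37 ± 0.14 (adjusted p = 0.955 in VIPKO and 0.0864 in WT). Which cells gave its signal was not tested.

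Among the growth signals Vegfc rose in VIPKO hypoxia. It was 588, 564, 594, 808 and 693 in VIPKO hypoxia libraries 1 to 5, and 256, 233, 181 and 239 in VIPKO normoxia libraries 1 to 4. The WT hypoxia signals were 288, 318, 249, 284 and 268, and WT normoxia ran from 192 over a median of 231 to 346. VIPKO hypoxia thus lay above every other library. Vegfc rose by 1.51 ± 0.15 in VIPKO lungs (adjusted p = 3.29e-05) and did not pass the test in WT lungs (0.25 ± 0.14, adjusted p = 0.210). The 2 effects differed by 1.26 ± 0.21 (adjusted p = 0.0179). That difference lost its call without VIPKO normoxia 4 (1.28, adjusted p = 0.0567) and without VIPKO normoxia 2 and 3 and VIPKO hypoxia 2 (1.17, adjusted p = 0.153). VIPKO hypoxia also exceeded WT hypoxia by 1.19 ± 0.15 (adjusted p = 0.000450). Of 17 lymphangiogenic genes, 1 rose in VIPKO hypoxia and none fell, and none rose and 3 fell in WT hypoxia, where 6.77% of all genes were called lower. Those 3 were Svep1, an extracellular protein (-0.54 ± 0.14, adjusted p = 0.0184), Adamts3, which processes pro-Vegfc (-0.74 ± 0.20, adjusted p = 0.0218), and Adamts14 (-0.82 ± 0.25, adjusted p = 0.0350). None of the 3 passed without WT hypoxia 1, where the changes were -0.43 (adjusted p = 0.0554), -0.55 (0.0615) and -0.61 (0.104). Between genotypes, 4 of the 17 were lower in VIPKO normoxia than in WT normoxia, beside 3.96% of all genes called lower. The fall was not particular to this list, since 2 of the 8 endothelial genes were called lower as well. The median change was -0.30 for those 8 and -0.22 for the 17. Adm, the peptide adrenomedullin, was lower by 1.69 ± 0.46 (adjusted p = 0.0281), and Efnb2, a ligand of the receptor Ephb4, by 0.66 ± 0.14 (adjusted p = 0.00822). Ephb4 itself was lower by 0.41 ± 0.12 (adjusted p = 0.0360) and the receptor Tie1 by 0.37 ± 0.11 (adjusted p = 0.0463). Several single libraries left out ended the calls of Adm, Ephb4 and Tie1. Efnb2 lost its call without VIPKO normoxia 2 and 3 and VIPKO hypoxia 2 (-0.64, adjusted p = 0.167), where 0 of all genes were called. In hypoxia, beside 0.9% of all genes called lower, Efnb2 was lower in VIPKO than in WT lungs (-0.58 ± 0.13, adjusted p = 0.0330), a call also lost with several single libraries left out.

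**Figure D5:**
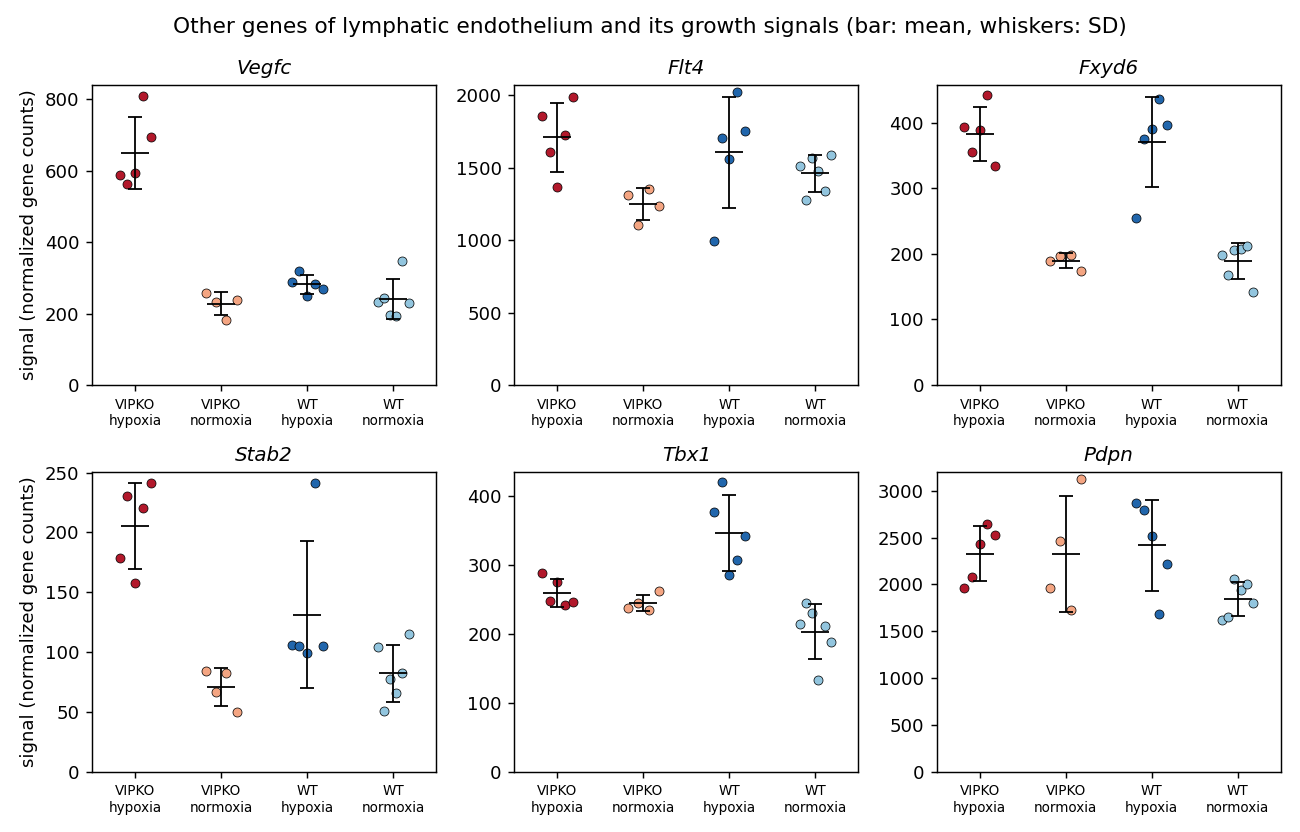
Signal (normalized gene counts, linear axes from 0) of Vegfc, Flt4, Fxyd6, Stab2, Tbx1 and Pdpn by library, with group means and SD. VIPKO hypoxia stands alone at 564 to 808 for Vegfc, both hypoxia groups exceed both normoxia groups for Fxyd6, and WT hypoxia has the highest mean for Tbx1.

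Of 9 transcription factors of the lymphatic programme, 2 rose and 2 fell in WT hypoxia and none passed the limma test in VIPKO hypoxia, where 1 had an unadjusted p under 0.05. The shares of all genes called, given above, are also low in VIPKO hypoxia. Tbx1 was 347 ± 54.6 in WT hypoxia (SD, n = 5) and 204 ± 39.4 in WT normoxia (SD, n = 6), a rise of 0.78 ± 0.13 (adjusted p = 0.00244). Foxc1 rose by 0.74 ± 0.16 (adjusted p = 0.00936). Gata2 fell by 0.46 ± 0.14 (adjusted p = 0.0309) and Nfatc1 by 0.31 ± 0.09 (adjusted p = 0.0312), calls that single left-out libraries ended. In VIPKO against WT normoxia Gata2 was lower by 0.72 ± 0.15 (adjusted p = 0.00763) and Sox18, which induces Prox1 in development, by 0.89 ± 0.20 (adjusted p = 0.0117). Without VIPKO normoxia 2 and 3 and VIPKO hypoxia 2 neither passed the test, at -0.68 for Gata2 and -0.76 for Sox18, and 0 of all genes were called in that comparison. Prox1 itself was not called there (0.23 ± 0.24, adjusted p = 0.588). Among 13 receptors and partners of the members, Hyal2, a hyaluronidase, rose by 0.54 ± 0.12 in VIPKO hypoxia (adjusted p = 0.0248), a call lost under several alternatives. Ccr7 fell by 0.71 ± 0.18 in WT hypoxia (adjusted p = 0.0174), and by 0.60 without WT hypoxia 1 (adjusted p = 0.0526).

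Other tissues could contribute to these libraries. Genes of lymphoid tissue, which also makes Ccl21, showed 0 rises and 2 falls among 6 tested in each genotype. Of all genes tested, 0.383% were called lower in VIPKO and 6.77% in WT hypoxia. Of the 6 changes, 0 were positive in VIPKO and 2 in WT lungs. The part of lymphoid tissue in the Ccl21a values was not tested. Cr2, a complement receptor of B cells and follicular dendritic cells, fell by 1.30 ± 0.25 in VIPKO (adjusted p = 0.0111) and by 0.95 ± 0.23 in WT lungs (adjusted p = 0.0119). The list summed to 471 to 728 in VIPKO hypoxia and 891 to 1153 in VIPKO normoxia, and to 665 to 894 in WT hypoxia and 779 to 1430.2 in WT normoxia. All 6 adipocyte genes rose in WT hypoxia, with a list sum of 682 to 11277 in WT hypoxia and 73.97 to 437 in WT normoxia, and 5 of 6 conducting airway genes rose there as well. Neither list had a called gene in VIPKO hypoxia, where the adipocyte sum was 586 to 2434 and that of VIPKO normoxia 405 to 1890.3. Their median changes in VIPKO hypoxia were 0.88 for adipocyte and -0.27 for airway genes. Both lists were already higher in VIPKO normoxia than in WT normoxia, with 2 of 6 adipocyte genes (median 2.88) and 5 of 6 airway genes (median 4.18) called. Their part in the members' values was not tested in either genotype.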

How the data were processed

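The authors deposited a table of normalized gene counts, read here as a signal, for 20 whole-lung libraries. Per the labels' protocols, RNA was taken with RNeasy Mini Plus and libraries were made from total RNA with NEBNext Ultra II Directional. The submitters' processing notes name Partek and mm10. Neither aligner nor strand setting nor normalization method is given in the sources used here. Lines without a gene name (55) were left out, and held 0.00700% of the signal.

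From the deposited values, log2(signal + 1) was fitted with limma 3.58.1 (R 4.3.3), with 4 group means over all libraries and a variance trend, for the 21658 genes that reached 10 in 4 or more libraries. Benjamini-Hochberg adjusted p-values under 0.05 were called. The fit was tested on simulated data. Depth was estimated from the commonest non-zero value of each library, taken as 1 read. Of low values, 82.1% to 89.1% were whole within 0.05 reads in 19 libraries and 21.4% in VIPKO hypoxia 2, so no count model was run.

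The members, lists and alternatives were chosen with earlier results of these data known. Named genes were all members, Flt4, Pdpn, the Ccl21 copies, and up to 4 called genes per list by smallest p. Genes most like the members were the 8 with the highest r, leaving aside unnamed models, antigen receptor segments and genes of the sex chromosomes. Loci and sequences came from GENCODE vM21 and RefSeq. Tables and figures used Python 3.11.15, pandas 2.3.3 and matplotlib 3.10.9.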

Additional observations from a re-analysis of the deposited data

Results flagged for a closer look

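Lyve1 in WT normoxia 5 stood far from the rest of its group, at a signal of 4534 against 2299 in the next library. Its gap to that library was 0.886 of the range of the group. Chance carries about 1 in 20 groups past the limit used, and 24 groups were examined. The genes listed for interstitial macrophages, which are not confined to them, summed to 47662 in the same library. That was the highest of WT normoxia, whose other libraries ran from 27086 to 36950. Which cells gave that sum, and the part of macrophages in the Lyve1 value, was not tested.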

How the results depend on the processing

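The counts of members called stayed at 5 for hypoxia in WT and 4 for hypoxia in VIPKO under every alternative run other than those named here. Without VIPKO normoxia 2 and 3 and VIPKO hypoxia 2 the count was 1 for hypoxia in VIPKO, with Prox1 1.40 (adjusted p = 0.136), Mmrn1 1.23 (adjusted p = 0.133) and Reln 1.38 (adjusted p = 0.0609), and 0 for VIPKO in normoxia. All genes called under that setting were 45 and 0. With library weights it was 3 for VIPKO in hypoxia, for Ccl21a, Prox1 and Mmrn1, while all genes called were 1926 (8.89%) against 350 (1.62%). Leaving out each library in turn gave 5 to 5 for hypoxia in WT, 4 to 4 for hypoxia in VIPKO, 0 to 1 for VIPKO in normoxia (Sema3d lost its call without VIPKO normoxia 4, adjusted p = 0.0787), 0 to 1 for VIPKO in hypoxia (Ccl21a gained one without WT hypoxia 4, adjusted p = 0.0349) and 0 to 0 for the difference of the hypoxia effects. Values not called changed sign for Lyve1 in WT hypoxia (0.00217 with library weights, and -0.473 to 0.0235 with a library left out), Reln in VIPKO normoxia (0.0294 with a replicate block, 0.170 without the 3 VIPKO libraries, and -0.108 to 0.0574 with a library left out), Lyve1 in VIPKO normoxia (0.0352 without those 3), Sema3d in VIPKO hypoxia against WT hypoxia (-0.0182 to 0.183) and Mmrn1 in the difference of effects (-0.00509 to 0.314). The causes were not tested. Equal replicate numbers did not pair the libraries, since their 27 pairs had a mean correlation of -0.0075 and 7 were over 0.1. With the replicate block the counts of members called were 5, 4, 1, 0 and 0 in the order of the comparisons above, and all genes called were 1544, 90, 682, 149 and 0, against 3173, 216, 1873, 350 and 61 without it. The difference of the Vegfc effects was then 1.21 (adjusted p = 0.0589). Summing the Ccl21 copies, chosen after seeing the data, changed no count. The fit on the compared groups alone was not run for the difference of effects, which needs all 4 groups.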
